A study of Mus musculus with 8 samples.

Results

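Genes known from retinal bipolar cells were followed on single-color microarrays of isolated photoreceptor cells. The 8 genes were Vsx1, Isl1, Grm6, Trpm1, Prkca, Pcp2, Cabp5 and Grik1, out of 22911 genes that could be named on the array, and every probe whose RefSeq accession maps to one of them was taken. This gave 20 of 56605 probes that were not controls. Of these, 16 probes, with at least 1 for each gene, passed the filter on dim probes, a signal well above background on 4 or more arrays, and were tested, among 34281 tested probes. Cells were isolated from C57BL/6 mice at postnatal day 8 (P8). After dissociation of the retina with trypsin, cells that carried CD73, a surface protein of photoreceptor cells encoded by Nt5e, were collected with an antibody and magnetic beads. The labels put 4 arrays in the group Lpcat1 HZ (heterozygous) and 4 in the group Lpcat1 KO, called HZ arrays and KO arrays here, so that the control group also carries a deleted Lpcat1 allele. The KO line came from a C57BL6/N background and was crossed with C57BL6/J mice to remove the rd8 mutation of Crb1. The mice used were described only as not homozygous for rd8. The number of mice behind an array was not given in the sources used here, nor whether replicates came from different mice, and p-values therefore measure only the spread between these arrays. Arrays are named here by label and replicate number, HZ 1 to HZ 4 and KO 1 to KO 4.

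A single slide held the 8 arrays, the KO arrays in its row 1 and the HZ arrays in its row 2, so genotype and row cannot be told apart, and the slide column was the replicate number. The 75th percentile of the signal, by which each array was scaled, lay between 882 and 1024 intensity units, and on each array 59.5% to 63.8% of probes exceeded background clearly by the mark of the software. Lpcat1 itself gave overlapping groups on its probe, with a log2 signal of -1.17 to -0.81 on the HZ arrays and -1.16 to -0.85 on the KO arrays, and genotypes are given as labelled. Whether this probe lies in the deleted part of the gene was not given in the sources used here. The 16 rod markers had a mean log2 signal, relative to the 75th percentile, of 5.87 to 6.16 on the HZ arrays and 5.82 to 6.10 on the KO arrays.

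Bipolar cells carry signals from photoreceptor cells to the inner retina. ON bipolar cells sense photoreceptor glutamate through the metabotropic receptor mGluR6, encoded by Grm6, which acts through the G protein Go to close the cation channel TRPM1 until glutamate falls in the light. OFF bipolar cells answer to glutamate through ionotropic receptors of the AMPA and kainate type, and both kinds arise late in retinal development under transcription factors such as VSX1 and ISL1. They do not belong to the CD73-positive fraction by design. In RNA of a cell fraction, fewer bipolar cells, less RNA per bipolar cell and RNA of the same genes from other cells cannot be told apart.

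Promoters are shown for the pair of genes whose probes disagreed with each other, Trpm1 and Cabp5. The RefSeq table (GRCm38.p6) held 11 promoter windows for 7 of the 8 genes, and Grik1 had no entry. In the 250 bases before each start, a script searched both strands for TAATCC, the core that the photoreceptor and bipolar factors CRX and OTX2 bind, and for CACGTG, an E-box that the pigment cell factor MITF binds. TAATTA, a homeodomain core, was searched as well. Trpm1 had starts at 2 places. The window before the upstream start was chr7:64153585-64153834 and that before the downstream start chr7:64185209-64185458, both on the plus strand, and the Cabp5 window was chr7:13397905-13398154 on the plus strand. The sequences run 5′ to 3′ and end at the base before the start, with matches in capitals.
Trpm1 upstream start: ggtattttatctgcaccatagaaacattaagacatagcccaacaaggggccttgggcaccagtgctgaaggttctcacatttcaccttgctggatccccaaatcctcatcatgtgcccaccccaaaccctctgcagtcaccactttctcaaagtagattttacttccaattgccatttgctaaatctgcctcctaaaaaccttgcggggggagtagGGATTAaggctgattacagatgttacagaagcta
Trpm1 downstream start: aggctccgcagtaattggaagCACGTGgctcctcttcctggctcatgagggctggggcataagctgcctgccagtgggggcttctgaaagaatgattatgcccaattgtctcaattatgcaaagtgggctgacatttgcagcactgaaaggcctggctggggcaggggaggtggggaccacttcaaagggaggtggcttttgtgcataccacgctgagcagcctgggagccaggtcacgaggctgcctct
Cabp5: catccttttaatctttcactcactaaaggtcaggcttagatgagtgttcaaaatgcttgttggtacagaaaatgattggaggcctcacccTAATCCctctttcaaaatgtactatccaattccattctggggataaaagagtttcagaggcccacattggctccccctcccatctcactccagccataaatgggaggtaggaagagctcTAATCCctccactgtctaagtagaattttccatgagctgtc
The capitals in the first Trpm1 window are GGATTA, which is TAATCC on the other strand, beginning 34 bases before the start. The capitals in the second are CACGTG, beginning 229 bases before the start. Cabp5 had TAATCC 160 and 41 bases before its start. TAATCC was in 6.25% of 32851 promoter windows of this length and CACGTG in 6.02%, while 0.295% had TAATCC at least 2 times. Isl1 also had TAATCC, Pcp2 had TAATTA in 1 of its windows, and the windows of Vsx1, Grm6 and Prkca had 0 matches. These matches describe letters only, and which Trpm1 start the transcripts behind each probe use was not analysed here.

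The question of the comparison is whether transcripts of isolated photoreceptor cells differ between Lpcat1 HZ and KO mice at the age at which photoreceptor loss begins. For the bipolar genes, 14 of 16 tested probes were lower on the KO arrays, where 49.5% of all tested probes were lower. Of these 16 probes, 5 belong to Trpm1, so the probes are not independent. The count also depended on the array HZ 2. Without it the difference was above 0 for Vsx1, both Grm6 probes, both Prkca probes, Trpm1 A_55_P2037997 and Cabp5 A_55_P2055504, which were lower with all arrays. At the stricter thresholds in the methods, an adjusted p under 0.05 with a fold change over 1.2, limma called 0 of the 16 probes and 0% of all probes. At an unadjusted p under 0.05 it called 2 of the 16, where 8.17% of all probes passed. At the looser thresholds, an adjusted p under 0.5 with a fold change over 1.5, it called 2 of the 16, a probe of Trpm1 and the tested probe of Grik1, where 1.04% of all probes were called. By the probe that stands for each gene, Grik1 was called, 1 of 8 genes, where 1.46% of all genes were. At this threshold up to 1 call in 2 may be expected to be false. The same 2 probes were the ones on which every KO array lay below every HZ array, which 2.14% of all probes did. The median log2 difference of the 8 genes, each by its tested probe with the highest mean, was -0.35, where the median of the 14840 tested genes was 0.029. It was 0.0020 without HZ 2, an array on which 6 of the 8 genes were at their highest. The median thus rested on 1 array.

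**Figure D1:**
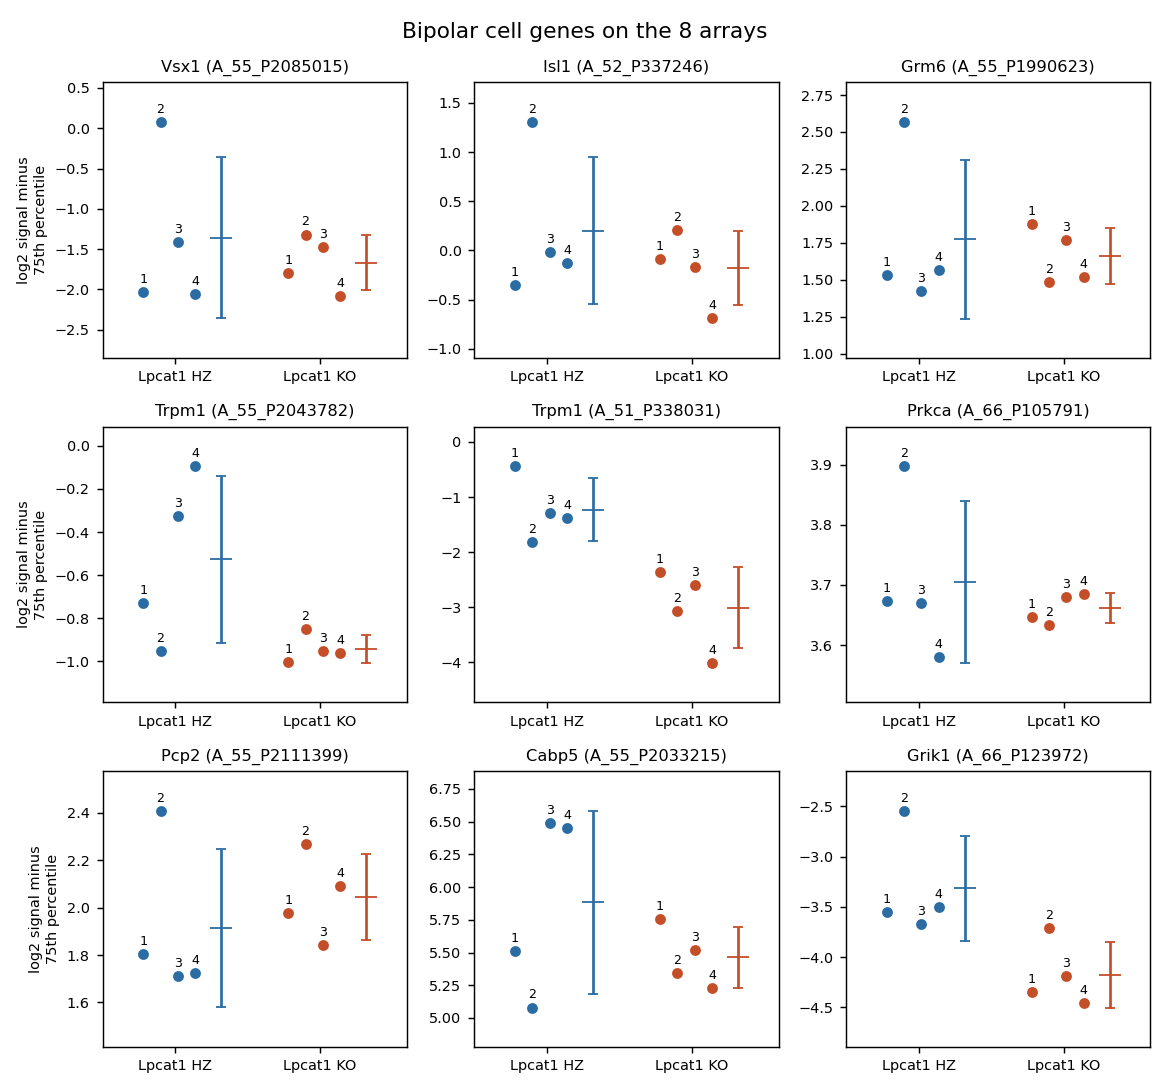
Log2 signal of the bipolar genes minus the 75th percentile of the array, by label, with the replicate number above each point and the mean ± SD (n = 4) beside the points. HZ 2 is the highest of the 8 arrays for Vsx1, Isl1, Grm6, Prkca, Pcp2 and Grik1, and the KO arrays lie below the HZ arrays for Grik1 and for the Trpm1 probe A_51_P338031.

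Among the transcription factors, Vsx1 marks types of bipolar cells, mostly OFF types, and its log2 signal was -2.04, 0.081, -1.41 and -2.06 on HZ 1 to HZ 4 and -1.80, -1.32, -1.47 and -2.08 on KO 1 to KO 4. The groups overlapped, and HZ 2 lay above all other arrays by more than 1 log2 unit. The difference, KO minus HZ, was -0.31 (standard error 0.46, limma adjusted p = 0.855), and 0.17 without HZ 2. Isl1, which is needed in ON bipolar cells and is also made by ganglion cells and cholinergic amacrine cells, had a log2 signal of -0.35, 1.31, -0.017 and -0.13 on the HZ arrays and -0.085, 0.21, -0.17 and -0.69 on the KO arrays. Here too HZ 2 was the highest of the 8 arrays, KO 2 came next, and the groups overlapped. The difference was -0.39 (standard error 0.37, limma adjusted p = 0.778), or -0.016 without HZ 2. A second Isl1 probe put HZ 2 (1.41) and KO 2 (0.079) in the same places and differed by -0.50 (standard error 0.38), or -0.099 without HZ 2. A second Vsx1 probe was not well above background on any array.

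Of the ON cascade, Grm6 had a log2 signal of 1.53, 2.57, 1.42 and 1.57 on HZ 1 to HZ 4 and 1.87, 1.49, 1.77 and 1.52 on KO 1 to KO 4. HZ 2 stood alone, and the other arrays of both labels shared a range of less than 1 log2 unit. The difference was -0.11 (standard error 0.25, limma adjusted p = 0.909) and turned to 0.16 without HZ 2. Another Grm6 probe also had its highest signal on HZ 2 (-1.90) and differed by -0.25 (standard error 0.26). On KO 2, by contrast, Grm6 was the lowest of the KO arrays on both probes.

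Trpm1 encodes the channel at the end of this cascade, and it is also a gene of pigment cells, under its older name melastatin. It had 6 probes, 5 of them tested, which did not move together. The probe A_51_P338031 had a log2 signal of -0.44, -1.81, -1.29 and -1.38 on HZ 1 to HZ 4 and -2.36, -3.06, -2.60 and -4.01 on KO 1 to KO 4. Every KO array was below every HZ array, and HZ 1 was the highest. The difference was -1.78 (standard error 0.40, limma adjusted p = 0.369), 3.43-fold lower, with 4 of 4 replicate numbers lower on the KO array and values between -1.99 and -1.44 as each array was left out. In a fit with the replicate number as a block, its limma adjusted p was 0.309. The tested probe with the highest mean, A_55_P2043782, had a log2 signal of -0.73, -0.95, -0.32 and -0.095 on HZ 1 to HZ 4 and -1.0, -0.85, -0.95 and -0.96 on KO 1 to KO 4. HZ 3 and HZ 4 were high, while HZ 2 lay among the KO arrays. The difference was -0.42 (standard error 0.18, limma adjusted p = 0.611), and -0.27 without HZ 4. The other tested probes, A_55_P2037997, A_66_P111464 and A_55_P2740906, differed by -0.11, 0.20 and -0.41 with overlapping groups, and a sixth was not well above background on any array. A_51_P338031 and A_55_P2740906 are annotated to the same RefSeq transcript, and the other tested probes to another.

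The arrays fell in the same order on A_51_P338031 as on a list of retinal pigment epithelium (RPE) markers. Of 14 such markers 13 were tested, and 13 were lower on the KO arrays, with a median log2 difference of -1.67. The mean deviation of these markers from their mean over the 8 arrays was 1.43, 0.035, 0.78 and 0.72 on HZ 1 to HZ 4 and -0.093, -0.79, -0.46 and -1.63 on KO 1 to KO 4. By rank, 8 of 8 arrays were in the same place on this list and on A_51_P338031, against 2 of 8 on A_55_P2043782 and 0 of 8 to 1 of 8 on the remaining tested Trpm1 probes. The mean log2 signal of the list lay between -1.10 and 0.29 on the HZ arrays and between -2.77 and -1.23 on the KO arrays, and Lrat was the marker not above background on enough arrays. Rpe65, the isomerase of the visual cycle and itself 1 of the 13 markers in this mean, fell in the same order from -0.55 on HZ 1 to -5.03 on KO 4. The part of pigment cell RNA in the Trpm1 difference was not tested.

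**Figure D2:**
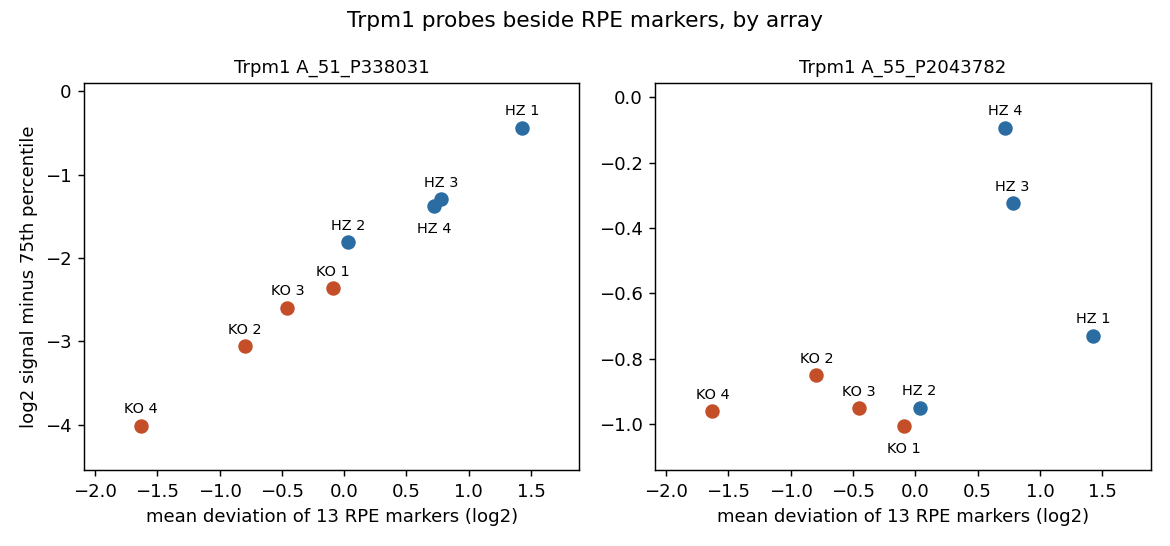
Log2 signal of a pair of Trpm1 probes against the mean log2 deviation of 13 RPE markers on the same array, with HZ arrays in blue and KO arrays in orange. On A_51_P338031 the arrays run from KO 4, lowest on both axes, to HZ 1, highest on both, while A_55_P2043782 is high on HZ 3 and HZ 4.

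Prkca, the protein kinase C alpha that is used to stain rod bipolar cells, had a log2 signal of 3.67, 3.90, 3.67 and 3.58 on the HZ arrays and 3.65, 3.63, 3.68 and 3.69 on the KO arrays. Its values were close together, with an SD of 0.14 and 0.026 (n = 4), and HZ 2 was again the highest. The difference was -0.044 (standard error 0.089, 95% interval -0.25 to 0.16), an interval that holds no change of 1.2-fold in either direction. Another Prkca probe differed by -0.017 (standard error 0.086). Pcp2, a regulator of Go signalling in ON bipolar cells, was the member gene that was higher on the KO arrays. Its log2 signal was 1.80, 2.41, 1.71 and 1.72 on HZ 1 to HZ 4 and 1.98, 2.27, 1.84 and 2.09 on KO 1 to KO 4. The array of number 2 was the highest in both groups. The difference was 0.13 (standard error 0.18, limma adjusted p = 0.839) and 0.30 without HZ 2.

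Cabp5, a calcium-binding protein of rod bipolar cells and some cone bipolar cells, had a log2 signal of 5.51, 5.08, 6.49 and 6.45 on HZ 1 to HZ 4 and 5.76, 5.34, 5.52 and 5.23 on KO 1 to KO 4. HZ 3 and HZ 4 were the highest and HZ 2 the lowest of all arrays, the reverse of its place for Vsx1, Isl1 and Grm6. The difference was -0.42 (standard error 0.32, limma adjusted p = 0.738), -0.69 without HZ 2 and -0.22 without HZ 3. The 16 rod markers had a similar level, a mean log2 signal of 5.87 to 6.16 on the HZ arrays and 5.82 to 6.10 on the KO arrays. Which cells the signal of this Cabp5 probe came from was not tested. The second Cabp5 probe gave another picture, with -4.68, -3.30, -4.26 and -4.42 on HZ 1 to HZ 4 and -4.87, -4.02, -4.09 and -4.75 on KO 1 to KO 4. There the array of number 2 was the highest in both groups, and the difference was -0.27 (standard error 0.33), or 0.021 without HZ 2. The 2 probes of Cabp5 therefore did not order the arrays alike.

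Grik1, the kainate receptor subunit through which some OFF bipolar cells receive glutamate, had a log2 signal of -3.55, -2.54, -3.67 and -3.50 on HZ 1 to HZ 4 and -4.35, -3.71, -4.19 and -4.45 on KO 1 to KO 4. All KO arrays lay below all HZ arrays, by a narrow margin between HZ 3 and KO 2. The difference was -0.86 (standard error 0.27, 95% interval -1.49 to -0.23, limma adjusted p = 0.498), 1.81-fold lower. It was lower on the KO array in 4 of 4 replicate numbers, by -0.80, -1.17, -0.52 and -0.95. As each array was left out the difference stayed between -1.01 and -0.60. The looser call lay at the edge of its threshold. It was lost without any 1 of HZ 1, HZ 3, HZ 4 and the 4 KO arrays, and with quantile normalization, normexp background correction, no filter on dim probes or the authors' processed values. The call held with a stricter dim-probe filter, another scaling percentile, trend and robust eBayes, the methods' t-test or gene means over probes. It also held without HZ 2 and without both arrays of number 2. With the replicate number as a block it held too (standard error 0.13, limma adjusted p = 0.309). With that block 3.89% of all tested genes were called. A second Grik1 probe was well above background on 2 HZ arrays and 0 KO arrays, too few to be tested. Its measured means were -4.98 and -6.02. With a floor put under the KO arrays, its signal was 1.79-fold lower there. As this floor, a KO array takes the dimmest signal that any probe has above background there, unless the probe itself is brighter. The HZ mean includes arrays on which the probe was not well above background, so this fold is not a strict bound. The last Grik1 probe was not well above background on any array.

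**Figure D3:**
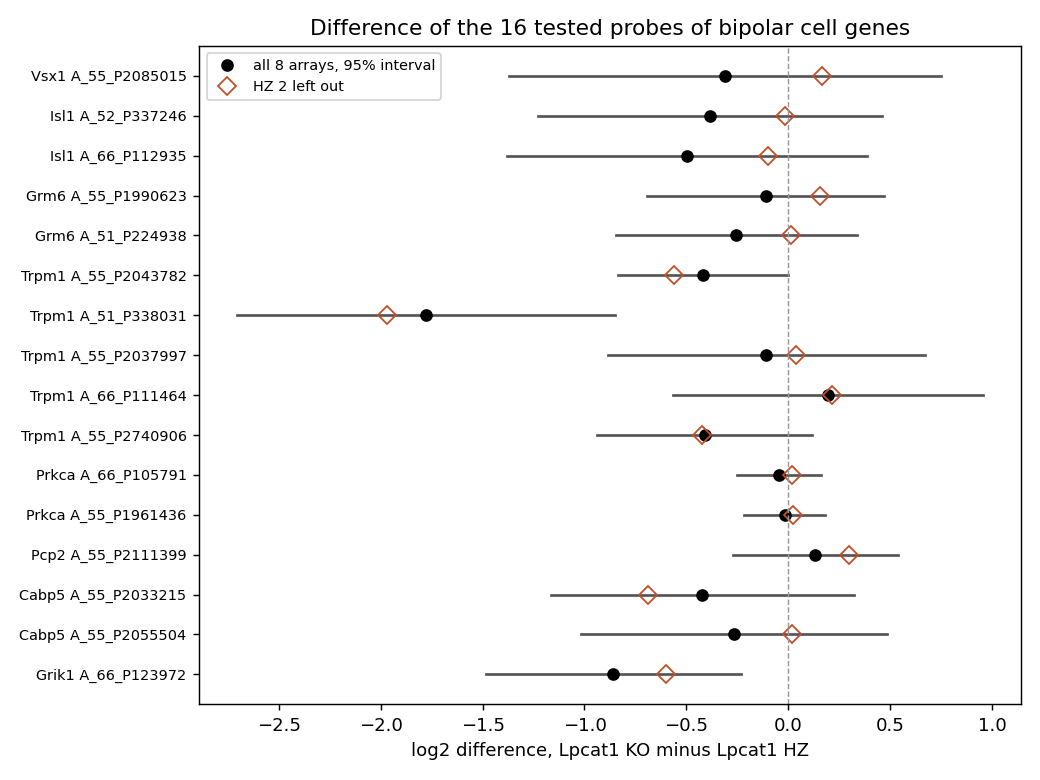
Log2 difference, Lpcat1 KO minus Lpcat1 HZ, of the 16 tested probes with its 95% interval from limma (black) and the difference without HZ 2 (orange diamonds). The intervals of Grik1 and of the Trpm1 probe A_51_P338031 lie below 0, and without HZ 2 the differences of Vsx1 and of both Grm6 probes are above 0.

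The labels number the arrays 1 to 4 in both groups, and deviations from the group means ran together in arrays of the same number. Across 8 genes, 6 were at their highest on HZ 2, where 20.9% of all tested genes were, and 5 were at their highest among the KO arrays on KO 2, where 35.6% were. Of the 16 probes, 11 were at their highest on HZ 2, where 14.8% of all probes were. These counts were chosen after the values had been seen. The mean deviation of the 8 genes was -0.15, 0.60, 0.10 and 0.058 on HZ 1 to HZ 4 and -0.13, -0.0010, -0.13 and -0.34 on KO 1 to KO 4. In limma's F-test of the replicate-number terms, 3 of 16 probes had an unadjusted p under 0.05, where 13.8% of all probes did. They were those of Grik1 (adjusted p = 0.300) and Pcp2 (adjusted p = 0.360) and the second Cabp5 probe (adjusted p = 0.303). At an adjusted p under 0.05 the F-test called 0 of 16 and 0% of all probes. Setting each member against the mean of the others over the 8 arrays, Pearson's r was 0.92 for Isl1, 0.84 for Grik1, 0.78 for Vsx1, 0.68 for Prkca and 0.64 for Grm6, but 0.34 for Pcp2, -0.018 for Trpm1 and -0.27 for Cabp5. Without HZ 2 it was 0.70 for Isl1, 0.52 for Grik1, 0.24 for Vsx1, -0.61 for Prkca, -0.39 for Grm6 and -0.52 for Pcp2, and it was higher than with all arrays for Trpm1 (0.55) and Cabp5 (0.49).

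Other genes of bipolar cells were taken from 3 lists. Of 14 transcription factors 13 were tested, and 12 were lower on the KO arrays, with a median log2 difference of -0.33 that was 0.0030 without HZ 2, over the 12 still tested. Limma called 0 of them at either pair of thresholds and 0 at an unadjusted p under 0.05. With the replicate number as a block it called 1 of the 13 at the looser thresholds, where 3.89% of all tested genes were called with the block. Of the 13, 11 were at their highest on HZ 2, and 11 were at their highest among the KO arrays on KO 2. Bhlhe23, a factor of rod bipolar cells, reached 2.04 on HZ 2 and 0.28 to 0.47 on the other HZ arrays, and differed by -0.54 (standard error 0.43), or -0.12 without HZ 2. Fezf2 differed by -0.43 (standard error 0.31), or -0.092 without HZ 2, and Irx6 by -0.41 (standard error 0.47), or 0.077 without HZ 2.

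The partners of the mGluR6 cascade, such as G protein subunits, RGS proteins and nyctalopin, went both ways. All 11 were tested, 4 were lower and 7 higher on the KO arrays, where 43.2% of all tested genes were lower. Their median log2 difference was 0.12, and 0 of them passed an unadjusted p under 0.05 in limma. On HZ 2 this list, too, had its highest mean deviation, 0.26, with 5 of 11 genes at their highest there. The difference between this list and the transcription factors was not tested. Gnb3, a member of the list, had a log2 signal of 5.02 to 5.51 on the HZ arrays and 5.30 to 5.46 on the KO arrays. Which cells the signals of this list came from, bipolar cells or others of the fraction, was not tested. Gnao1, the alpha subunit of Go, which many neurons make, differed by 0.26 (standard error 0.16, limma adjusted p = 0.694). Nyx, which encodes nyctalopin, had a log2 signal of -3.58, -2.96, -3.66 and -4.12 on HZ 1 to HZ 4 and -3.48, -3.17, -3.61 and -3.19 on KO 1 to KO 4, with overlapping groups and a difference of 0.21 (standard error 0.24), which was 0.034 without HZ 4 and 0.42 without HZ 2. Gnb5 differed by -0.30 (standard error 0.34), and by 0.073 without KO 4, on which it was 2.48 against 3.80 to 4.14 on the other KO arrays. Rgs7bp, well above background on 1 HZ array and 3 KO arrays, differed by 0.37 (standard error 0.26).

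Of 13 other receptors, channels and calcium sensors of bipolar cells 10 were tested, 7 lower and 3 higher on the KO arrays. Their median log2 difference was -0.14, or 0.017 without HZ 2, over the 8 still tested, and 6 were at their highest on HZ 2. Tacr3, the neurokinin receptor of some OFF bipolar cells, had a log2 signal of -4.86, -2.78, -4.35 and -5.98 on HZ 1 to HZ 4 and -5.09, -4.16, -5.60 and -7.51 on KO 1 to KO 4. It was lower on the KO array within each number, although the groups overlapped, and it was well above background on 3 arrays of each group. The difference was -1.10 (standard error 0.84, limma adjusted p = 0.737), with an adjusted p of 0.338 and a looser call with the replicate number as a block. It was -0.53 without HZ 2 and -0.46 without KO 4, the array on which the probe was dimmest. Scgn, which encodes secretagogin of cone bipolar cells, differed by -0.50 (standard error 0.44), or -0.061 without HZ 2, and Gabrr1, a GABA receptor subunit of bipolar cells, by -0.37 (standard error 0.37), or 0.011 without HZ 2. Hcn4, an ion channel opened by hyperpolarization, differed by 0.83 (standard error 0.99), a value set by KO 1, where it was -0.78 against -5.47 to -5.14 on the other KO arrays, and by -0.29 without it.

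**Figure D4:**
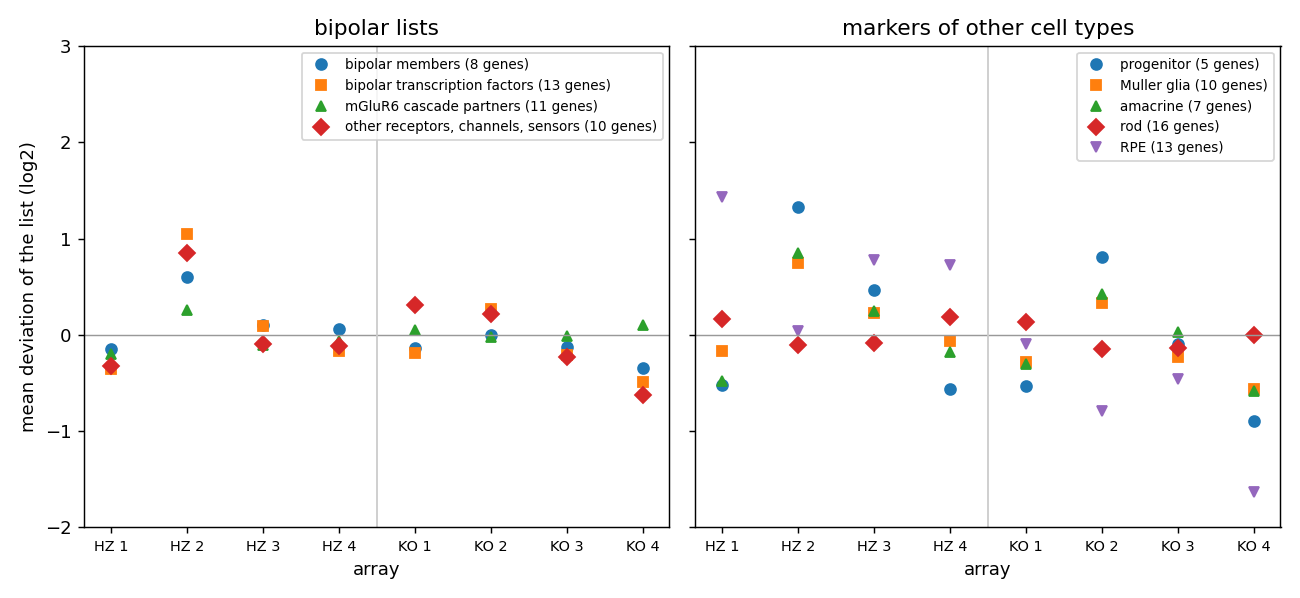
Mean log2 deviation of each list's tested genes from their mean over the 8 arrays, one point an array, for the bipolar lists (left) and for markers of other cell types (right). HZ 2 is the highest array for the bipolar transcription factors, at 1.04, and for the progenitor, Muller glia and amacrine markers, but not for the rod and RPE markers.

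Of the markers of other inner retinal cells, those of progenitors, Muller glia and amacrine cells were at their highest on HZ 2, and those of horizontal and ganglion cells were not. The mean deviation of the 5 tested progenitor markers was 1.32 on HZ 2 and 0.81 on KO 2, and -0.89 to 0.47 on the other arrays, and 5 of 5 were at their highest on HZ 2. For the Muller glia markers the value was 0.74 on HZ 2 and 0.33 on KO 2, with 7 of 10 at their highest on HZ 2, and for the amacrine markers 0.85 and 0.43, with 5 of 7. The 3 tested horizontal cell markers had 0.0044 on HZ 2 and were highest on KO 3, at 0.21, with 0 of 3 at their highest on HZ 2, and the 4 tested ganglion cell markers had 0.33 on HZ 2 and 0.39 on KO 2, with 2 of 4. Ccnd1, a cyclin of dividing progenitors, had a log2 signal of 1.48 on HZ 2 and 0.96 on KO 2, against -1.97 to 0.10 on the other arrays. Of 16 rod markers and 10 cone markers, 0 were at their highest on HZ 2. Medians of the progenitor, Muller glia and amacrine markers were -0.32, -0.29 and -0.32 with all arrays and -0.00023, 0.025 and 0.061 without HZ 2. The mean log2 signal of the lists, on HZ and then on KO arrays, lay between -3.14 and -1.25 and between -3.46 and -1.76 for the progenitor markers, between -0.84 and 0.077 and between -1.23 and -0.34 for the Muller glia markers, and between -2.08 and -0.75 and between -2.18 and -1.17 for the amacrine markers. The progenitor markers Cdk1, Fgf15 and Hes1 and the amacrine markers Gad1, Tfap2a, Tfap2b, Slc18a3, Slc5a7 and C1ql2 were not well above background on enough arrays to be tested. The part of these cell types in the values of the bipolar genes was not tested.

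Over 14734 other genes measured on all 8 arrays, those whose values ran most like the mean deviation of the bipolar genes were Nyap2 (Pearson's r = 0.992, Spearman's rho = 0.905), Dbndd1 (r = 0.980, rho = 0.857), Gabrb2 (r = 0.979, rho = 0.905), Trnp1 (r = 0.977, rho = 0.833) and Chadl (r = 0.976, rho = 0.881). These are the highest of many correlations over 8 arrays that share a slide, and all 5 genes were at their highest on HZ 2. Without HZ 2 and KO 4, the arrays farthest from the median, r was 0.930, 0.837, 0.828, 0.764 and 0.892 in the same order. Trnp1, a nuclear protein of neural progenitors, had a log2 signal of 4.74 on HZ 2 and 2.38 to 3.43 on the others.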

How the data were processed

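The 8 arrays were SurePrint G3 mouse arrays with Cy3-labelled cRNA made from 0.03 ug of total RNA. The authors deposited the scanner output of Agilent Feature Extraction 10.7.1.1, from which the background-subtracted signal intensity of each spot was used. A table of log2 values that the authors had normalized in GeneSpring was deposited too. Set against the scanner values, these were on a log2 scale and centred on each probe's median over the arrays (r of 0.9986 to 0.9998 per array, column medians from -0.065 to 0.20), and they served as an alternative. The methods give both pairs of thresholds without assigning them to these arrays.

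From the intensities, the log2 signal was taken relative to the 75th percentile of an array's 59305 non-control spots. Outlier spots were dropped and the spots of each probe averaged. Testing needed 4 or more arrays well above background and 3 or more values in each group. Subtraction and this filter leave dim probes, such as those of Grik1, the least precise, and the number of arrays limits all differences. Probes were named by RefSeq accession and the GRCm38.p6 gene list, and 32994 of 56605 matched. Labels were compared, two-sided, with limma 3.58.1 in R 4.3.3 (files read with version 1.17.8 of data.table) and Benjamini-Hochberg adjustment over all tested probes, and tested on simulated data. A gene is reported by its tested probe with the highest mean. The members and lists were chosen with earlier results of these data known. Named are the members, the 4 genes of each bipolar list and the 2 of each other marker list with the largest difference, and the 5 genes most like the members' mean. One gene that this rule names is not reported here. Plots were drawn with matplotlib 3.10.9 and promoters read with pandas 2.3.3.

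Same-numbered arrays deviated together, with r of 0.172 to 0.337, above the minimum of 0.1 in 4 of 4 pairs, against -0.337 to 0.117 for different numbers. The labels do not say what the replicate number marks, and it is also the slide column. A pairing of the arrays and an effect of the column therefore cannot be told apart. The main comparison did not use the number, and a fit with it as a block was an alternative. Pearson's r between arrays lay between 0.974 and 0.992, and 0 pairs held identical values.

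Other settings tried were normexp background correction (offset 50), quantile normalization, a scaling percentile from probes that were above background throughout, a dim-probe filter that was absent or stricter, the replicate number as a block, trend and robust eBayes, the methods' t-test, the processed values of the authors, gene means over probes and leaving out each array. Leaving out both arrays of number 2 was added after the data were seen, as was the block for the related lists.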

Additional observations from a re-analysis of the deposited data

Results flagged for a closer look

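In 7 of 88 groups of 4 values that were examined, an array stood apart from the rest of its group, where chance gives about 1 in 20 groups, or 4.4. The array was HZ 2 for 4 of them, all genes of bipolar cells. Grm6 had a log2 signal of 2.57 there, against 1.42 to 1.57 on the other HZ arrays. Pcp2 had 2.41 against 1.71 to 1.80, Grik1 had -2.54 against -3.67 to -3.50, and Bhlhe23 had 2.04 against 0.28 to 0.47. On KO 1 the Hcn4 probe had -0.78, against -5.47 to -5.14 on the other KO arrays. On HZ 1 the mean deviation of the horizontal cell markers was -0.27, against -0.027 to 0.0044, and that of the red blood cell markers was 0.26, against -1.23 to -1.04. The cause of these values was not tested.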

How the results depend on the processing

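At an adjusted p under 0.05 with a fold over 1.2, 0 of the 8 bipolar genes and 0 of the related bipolar genes were called under every alternative run, and the F-test of replicate numbers called 0 members at an adjusted p under 0.05 likewise. Over all probes that count was 0, and 17 with normexp background correction, 2 with quantile normalization, 2 with the methods' t-test after Benjamini-Hochberg adjustment and 3 with trend and robust eBayes. At the looser thresholds 1 member gene (Grik1) was called. The count was 0 with quantile normalization, normexp, no filter on dim probes or the authors' processed values, and 0 to 2 as each array was left out, with Grik1 and Cabp5 called without HZ 2. It was 3 without both arrays of number 2, with or without the replicate block, by Trpm1, Cabp5 and Grik1. Over all probes the looser count was 356, with 1162 under the replicate block, 41 with no filter, 1116 without both arrays of number 2, 1646 with the block added, and 0 to 1617 with each array left out, where 0 came without HZ 1, HZ 3 or KO 3 and 1617 without HZ 2. The replicate block called 1 of the transcription factors and 1 of the other receptors, channels and sensors (Tacr3), where 0 of each were called without it. Without both arrays of number 2 the count was 1 for the transcription factors, and with the block added 1 for each of these lists. The replicate block changed no other call of a list or member.

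The median of the bipolar genes was -0.35, between -0.51 and 0.0020 with each array left out, and -0.059 without both arrays of number 2. The median of the cascade partners was -0.012 with normexp. The following differences changed sign. With normexp, Gnao1 was -0.013, Prkca A_66_P105791 was 0.085, Trpm1 A_55_P2037997 was 0.044 and Trpm1 A_66_P111464 was -0.023. Without both arrays of number 2, Grm6 was 0.21 and 0.057 on its probes A_55_P1990623 and A_51_P224938, Prkca 0.030 and 0.048 on A_66_P105791 and A_55_P1961436, Trpm1 A_55_P2037997 0.32 and Vsx1 0.051, and these values were the same with the replicate block. With each array left out, the difference ranged from -0.23 to 0.16 and -0.43 to 0.012 for these Grm6 probes, from -0.085 to 0.020 and -0.059 to 0.024 for those of Prkca, from -0.35 to 0.17 for Trpm1 A_55_P2037997, from -0.039 to 0.46 for Trpm1 A_66_P111464, from -0.55 to 0.17 for Vsx1 and from -0.44 to 0.021 for Cabp5 A_55_P2055504. It ranged from -0.58 to 0.011 for Gabrr1, -0.48 to 0.073 for Gnb5, -0.29 to 1.28 for Hcn4, -0.62 to 0.077 for Irx6, -0.0038 to 0.32 for Onecut1, -0.77 to 0.077 for Slc32a1 and -0.77 to 0.021 for Top2a. The cause was not tested.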

Other observations

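Markers of microglia, red blood cells, the RPE and vessels were compared as well. The 12 microglia markers had a median log2 difference of 0.78, KO minus HZ, with 11 higher on the KO arrays. Cx3cr1, a chemokine receptor of microglia, differed by 0.93 (standard error 0.33) and Ctss, a lysosomal protease, by 0.92 (standard error 0.35). The 3 tested red blood cell markers had a median of 1.58, with Hbb-bt at 1.70 (standard error 0.69) and Hba-a2 at 1.58 (standard error 0.60). Mlana, a melanocyte and RPE gene, differed by -2.26 (standard error 0.62). The vascular markers went both ways, with Cldn5 at 1.24 (standard error 0.61) and Kdr at -0.79 (standard error 0.62), or -0.29 without HZ 2. At an adjusted p under 0.05, limma called 0 of these genes. At the looser thresholds it called 10 of the 13 tested RPE markers, all lower on the KO arrays, and 1 of the 12 microglia markers, which was higher. It also called 1 of 10 Muller glia markers, Car14, and 0 of the red blood cell and vascular markers, where 1.46% of all tested genes were called.

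Of the Muller glia markers, Car14, a carbonic anhydrase that the RPE also makes, had a log2 signal of -0.20, -0.98, -0.87 and -1.03 on HZ 1 to HZ 4 and -1.64, -1.97, -1.90 and -2.68 on KO 1 to KO 4, with groups that did not overlap, and differed by -1.28 (standard error 0.26). Rlbp1, the retinaldehyde-binding protein of Muller glia and RPE, differed by -0.97 (standard error 0.37). Its log2 signal was -0.075, 0.83, -0.0095 and -0.39 on HZ 1 to HZ 4 and -1.09, -0.033, -0.75 and -1.65 on KO 1 to KO 4. The groups overlapped, and the array of number 2 was the highest in both, whereas Car14 was highest on HZ 1 and KO 1. Both genes belong to the RPE as well as to Muller glia, and the part of each cell type in their differences was not tested. The other markers of the list did not pass an unadjusted p of 0.05 in limma. Among photoreceptor markers the largest differences were those of Cnga1 (-0.55, standard error 0.26) and Gnat1 (0.36, standard error 0.25) in rods, Arr3 (0.49, standard error 0.44) and Opn1mw (0.41, standard error 0.54) in cones, and Neurod1 (-0.24, standard error 0.11) and Rcvrn (-0.21, standard error 0.16) in both. Among inner retinal markers they were those of Tfap2c (-0.51, standard error 0.40) and Slc32a1 (-0.44, standard error 0.59) in amacrine cells, Onecut2 (0.19, standard error 0.18) and Onecut1 (0.18, standard error 0.22) in horizontal cells, Pou4f1 (-0.80, standard error 0.51) and Isl2 (0.27, standard error 0.12) in ganglion cells, and Ccnd1 (-0.61, standard error 0.71) and Top2a (-0.41, standard error 0.57) in progenitors. For several of these, the smallest difference that leaving out 1 array gave was as follows. Without HZ 2, Ccnd1 differed by -0.10 and Tfap2c by -0.20. Without KO 4, Opn1mw differed by 0.019 and Pou4f1 by -0.39. Arr3 differed by 0.15 without HZ 1, Gnat1 by 0.19 without HZ 3, Onecut2 by 0.099 without HZ 4 and Cnga1 by -0.30 without KO 3. Without KO 1, Neurod1 differed by -0.14 and Rcvrn by -0.12. Cldn5 differed by 0.78 without HZ 3.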
